A study of Bos taurus
Mus musculus with 10 samples.

Results

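The genes described here build the contacts between neighbouring cells: 4 classical cadherins and 3 catenins of the adherens junction, 7 claudins with 7 other tight junction proteins, 7 desmosomal proteins, 4 connexins, the adhesion molecule EPCAM and the splicing factors ESRP1 and ESRP2. They were taken by symbol, 35 in all, by a rule that uses no measured value but was set with earlier results of these data known. All 35 of 35 were found in a bovine table of 27590 genes. Of these, 33 passed a filter on low values (a normalised read count of at least 10 in at least 5 libraries) among 18506 genes that did. RNA came from 10 wells, each with bovine embryonic stem cells labelled wild type and growing on mouse embryonic fibroblasts. The 5 stem cell lines, numbered 1, 2, 4, 8 and 11, were made from day 7.5 blastocysts. The feeder cells came from CD-1 mouse fetuses of day E13.5, and mitomycin C had stopped their growth. Every line gave 1 well that stayed in mTeSR1 medium containing IWR-1 at 2.5 µM and 1 well moved to the same medium without IWR-1, and both were collected at day 1. IWR-1 inhibits tankyrases, which stabilises AXIN and lowers Wnt/beta-catenin signalling. The sources used here do not say whether the lines come from unrelated embryos.

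Adherens junctions hold cells together through cadherins, which bind like cadherins on the next cell and are tied to actin inside the cell by catenins. Tight junctions are strands of claudins that seal the space between epithelial cells, and they rest on scaffold proteins such as TJP1 (ZO-1). Desmosomes rivet cells through the desmogleins and desmocollins, whose plaque proteins bind keratin filaments, and connexins form the channels of gap junctions. Pluripotent stem cells grow as compact colonies that are epithelial in character, with E-cadherin and gap junctions between the cells. Beta-catenin, the effector of Wnt signalling, is also a partner of the cadherins.

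The libraries held 48064953 to 64345738 reads on bovine genes. Pluripotency genes were read in every well (7 of the 8 listed were matched), with POU5F1 at 18294 to 62019 and SOX2 at 13371 to 22072 normalised reads. Their sum was lowest in line 4 in both media (97061 and 93304), with line 11 next (107791 and 99274). In the limma test described below, 1 of the 7 was called, NANOG, higher without IWR-1 (log2 difference 0.33 ± 0.06, SE, adjusted p = 0.0411). DNMT3B was at -0.27 ± 0.07, not called. The 8 listed trophectoderm markers summed to 222 to 2108, mostly KRT7 outside line 4, with TFAP2A at 376 and 428 in line 4 and CDX2 at 0 to 1.19 in all wells but line 4 without IWR-1 (86.6). The 5 hypoblast markers summed to 32.1 to 147, and GATA4 was at 0 to 2.02. The share of assigned reads that fell on mouse genes was 41.4% and 42.3% in line 4 and 21.2% to 33.3% elsewhere, and in each of 5 lines the well without IWR-1 had the lower share (exact sign-flip p = 0.0625, the smallest that 5 pairs allow). Line 4 stood apart in its bovine reads too: 9 of 11 tested fibroblast and mesenchyme markers were highest in it in both media, against 19.1% of all tested genes. The summed level of the 12 listed markers was 227710 and 242211 there against 50411 to 111818 in the other lines. Single markers lay further apart than this sum, of which VIM is a large part. COL1A2 was at 28291 and 30918 in line 4 with and without IWR-1 and at 89.7 to 372 elsewhere. COL3A1 was at 27503 and 29627 against 4.05 to 537, and POSTN at 4097 and 3209 against 0 to 19.5. LUM and TWIST2 were not highest in line 4 in both media. FAP was at 0 in the other 4 lines. The sources used here do not say what became of reads that fit either genome, and for no gene, GJA1, CDH2 and CDH11 included, could such reads be set apart. Because each well is a bulk sample, a change in the number of cells of one kind and a change in RNA per cell cannot be told apart.

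After 1 day without IWR-1, 1 of the 33 tested junction genes was called different at an adjusted p under 0.05. This gene, GJA1 (gene ID 281193), which encodes the gap junction channel protein Cx43, was called higher, and 0 members were called lower. A member that was not called is not thereby shown to be unchanged. Changes were tested within lines with limma on log2(value + 1), with the line as a block and Benjamini-Hochberg adjustment over all tested genes. Over the whole table this test called 0.886% of genes higher and 0.0648% lower without IWR-1. The median log2 difference was 0.03 over the members and -0.0046 over all tested genes, with 18 members positive and 15 negative.

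GJA1 stood at 711, 3744, 13313, 5322 and 12520 normalised reads with IWR-1 in lines 1, 2, 4, 8 and 11. Without IWR-1 it stood at 1133, 7949, 16843, 9038 and 26496 in the same lines. Each line was higher without IWR-1, although the lines are so far apart that the 2 media overlap. The log2 difference was 0.79 ± 0.10 (SE, n = 5 lines), a 1.73-fold rise with a limma adjusted p of 0.0069 and a 95% interval of 0.57 to 1.01. With 1 line left out at a time it lay between 0.71 and 0.90 and was called in each of the 5 fits, with adjusted p-values up to 0.0463.

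By line, the rise of GJA1 was smallest in line 4 (0.34) and largest in lines 2 and 11 (1.09 and 1.08), with 0.67 in line 1 and 0.76 in line 8. The mouse share of reads moved as well: it changed by -0.92 percentage points in line 4, -2.26 in line 1, -4.19 in line 2, -4.22 in line 8 and -6.63 in line 11. Since the share fell in each of the 5 lines, a fit with line, medium and share separates share and medium only in part, here and below. With the mouse share as a covariate beside the line, the log2 difference of GJA1 was 0.32 ± 0.15 (SE, against 0.10 without the covariate). It was not called (adjusted p = 0.9998, with 0 genes called in the whole table). Without the line as a block it was not called either (adjusted p = 1.00), with 0 members at an unadjusted p under 0.05 in limma or edgeR. The part of the mouse cells in the rise was not tested. Summed fibroblast markers of the bovine table changed by -0.00 in lines 1 and 11, by 0.33 in line 2, by 0.09 in line 4 and by 0.12 in line 8 on the log2 scale. VIM made up most of that sum outside line 4, and its log2 change was -0.08 in line 1 and -0.22 in line 11. Of the 11 tested markers 8 were positive, 3 negative and 0 called. COL1A1 (0.36 ± 0.08, SE), PDGFRB (0.56 ± 0.12) and THY1 (0.30 ± 0.09) were higher without IWR-1 in 5 of 5 lines. That held for 6.2% of all tested genes.

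**Figure D1:**
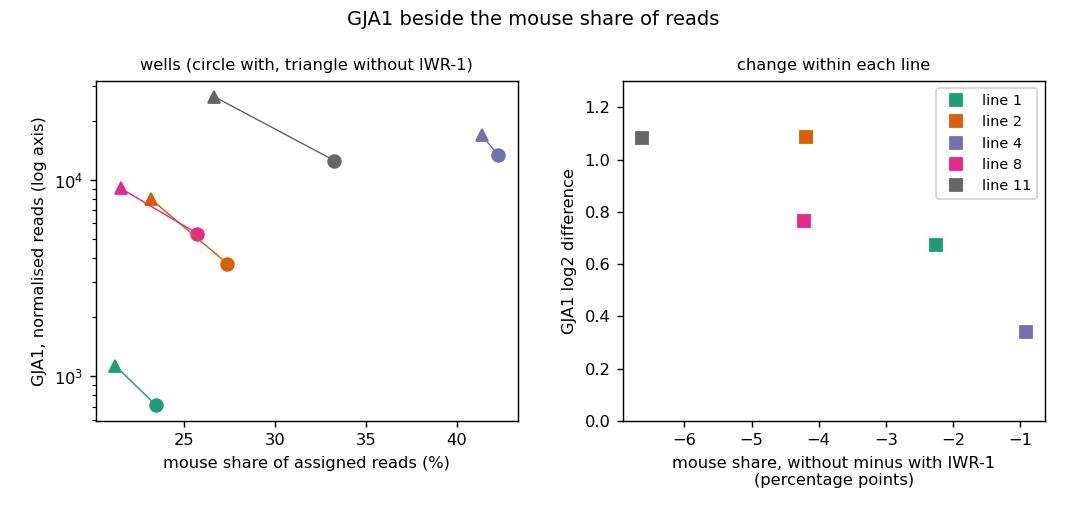
Left, GJA1 in each well (normalised reads, log axis) against the mouse share of assigned reads in percent, with the wells of a line joined; right, the log2 difference of GJA1 without minus with IWR-1 against the change of the mouse share in percentage points, 1 square per line. Every line has more GJA1 and a lower mouse share without IWR-1, and line 4 has both the smallest rise (0.34) and the smallest change of the share (-0.92).

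The other connexins gave no call. GJC1, encoding Cx45, was at 5030 to 7162 normalised reads with IWR-1 and 5100 to 7148 without it. Its log2 difference of -0.01 ± 0.05 has a 95% interval of -0.13 to 0.11, so a rise of the size of that of GJA1 lies outside it. GJB2, encoding Cx26, was read little, at 7.09 to 102 normalised reads with IWR-1 and 2.96 to 117 without it, and its interval from -0.61 to 0.89 takes in changes either way. GJB5 (Cx31.1) had 0 to 4 recovered reads in every well and was not tested. The call is for 1 of 3 tested connexins among the members.

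None of the 4 classical cadherins was called. CDH3, the P-cadherin of epithelia, was at 2413, 1576, 1635, 1615 and 1651 normalised reads with IWR-1 in lines 1, 2, 4, 8 and 11. It was at 3049, 2041, 1771, 1878 and 1927 without it. All 5 lines were higher without IWR-1, line 1 lay above the others in both media, and the groups overlap. The log2 difference of 0.25 ± 0.06 (SE) was not called over all genes (limma adjusted p = 0.103). Over the table, 6.2% of genes were higher without IWR-1 in 5 of 5 lines and 4.92% lower, against 4 members (CDH3, DSC3, PKP2 and GJA1) and 2 members (MARVELD3 and ESRP1) of 33.

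The E-cadherin gene CDH1 was at 10869, 10091, 3663, 13699 and 9269 normalised reads with IWR-1 and 11416, 9912, 4038, 11163 and 8980 without it, in lines 1, 2, 4, 8 and 11. Line 4 held less than the other lines in both media. The log2 difference was -0.03 ± 0.07 (SE), higher in 2 lines and lower in 3, with a 95% interval of -0.18 to 0.12. CDH2, encoding N-cadherin, was at 18211 to 44849 with IWR-1 and 18475 to 41771 without it, with a log2 difference of 0.00 ± 0.06 and an interval of -0.13 to 0.14. CDH11, a cadherin of mesenchymal cells, was at 0.03 ± 0.06 (interval -0.10 to 0.17). The log2 ratio of CDH2 to CDH1 in a well, which is compared here only between wells, changed by 0.03 ± 0.17 (SD, n = 5 lines).

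None of the 3 catenins, which tie cadherins to the cytoskeleton, was called. CTNNA1, the alpha-catenin that reaches actin, was at -0.01 ± 0.06 (SE), CTNND1 (p120), which holds cadherins at the surface, at -0.02 ± 0.06, and JUP (plakoglobin), shared by adherens junctions and desmosomes, at -0.06 ± 0.06. Their 95% intervals together span -0.18 to 0.13.

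None of the 7 claudins was called, with 2 above 0 and 5 below it. CLDN6, a claudin known from pluripotent cells, was at 2715 to 13621 normalised reads with IWR-1 and 2992 to 12643 without it, with a log2 difference of -0.06 ± 0.07 (SE). CLDN7 (-0.12 ± 0.13), CLDN3 (0.09 ± 0.11) and CLDN12 (-0.01 ± 0.06) likewise moved up in some lines and down in others. CLDN1, the barrier claudin of skin, was at 41.8 to 143 normalised reads with IWR-1 and 81.9 to 186 without it. It was higher without IWR-1 in 4 of 5 lines, at 0.47 ± 0.19 (adjusted p = 0.431), or 0.28 without line 11. CLDN4 was at 12.7 to 105 and CLDN10 at 26.5 to 73.5 normalised reads, with wide intervals of -0.99 to 0.37 and -0.58 to 0.50 at this depth. With the mouse share as a covariate CLDN4 was at -1.74 ± 0.45 (SE), not called, and CLDN1 at 0.12 ± 0.41.

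Of the other tight junction membrane proteins, MARVELD3 was lower without IWR-1 in every line. It was at 138, 108, 49.98, 139 and 114 normalised reads with IWR-1 and at 128, 74.0, 36.9, 122 and 62.3 without it, in lines 1, 2, 4, 8 and 11. Line 4 was lowest in both media, and the groups overlap. The log2 difference was -0.42 ± 0.16 (SE, limma adjusted p = 0.376), not called, and -0.10 ± 0.35 with the mouse share as a covariate. Its relative MARVELD2, tricellulin of the corners where 3 cells meet, was at 0.13 ± 0.08, OCLN (occludin) at 0.12 ± 0.07 and F11R, the immunoglobulin-like JAM-A, at -0.11 ± 0.08.

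Among the plaque proteins of tight junctions, CGN (cingulin), which links the plaque to actomyosin, was higher without IWR-1 in 4 of 5 lines at 0.28 ± 0.08 (SE, adjusted p = 0.187), and at -0.03 in line 4. It went from 651 to 1515 normalised reads with IWR-1 to 636 to 1932 without it. The scaffold TJP1 was at 0.06 ± 0.08 and TJP3 at -0.02 ± 0.08.

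Of the 3 desmosomal cadherins, DSC3 differed most between media. DSC3, a desmocollin of stratified epithelia, was at 101, 134, 322, 125 and 220 normalised reads with IWR-1 in lines 1, 2, 4, 8 and 11. It stood at 184, 175, 384, 185 and 383 without it. All 5 lines were higher without IWR-1, with lines 4 and 11 above the rest, and the groups overlap. The log2 difference was 0.57 ± 0.12 (SE, 95% interval 0.30 to 0.85), which limma did not call (adjusted p = 0.0689) and DESeq2 did (0.57, adjusted p = 0.0103). DSC2, the desmocollin of simple epithelia, was at 0.05 ± 0.08 and the desmoglein DSG2 at 0.03 ± 0.07.

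In the desmosomal plaque PKP2 was higher without IWR-1 in 5 of 5 lines. This plakophilin binds desmoplakin, and its mean was 4742 ± 1129 normalised reads with IWR-1 and 5646 ± 1447 without it (SD, n = 5 lines). The log2 difference of 0.24 ± 0.06 (SE) was not called by limma (adjusted p = 0.109) and was by DESeq2 (0.24, adjusted p = 0.0469). DSP, the desmoplakin that anchors keratin filaments, was at 0.10 ± 0.10, with 0.60 in line 2 and -0.30 in line 8. PKP4 was at 0.04 ± 0.07, and PKP3, with 0 to 15 recovered reads in every well, was not tested.

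EPCAM, an adhesion molecule of epithelial and pluripotent cells, was at 1405 to 6238 normalised reads with IWR-1 and 1093 to 7127 without it. The log2 difference was -0.05 ± 0.07 (SE, 95% interval -0.21 to 0.12). ESRP1, which sets epithelial splice forms, was at 2069, 912, 556, 1445 and 197 with IWR-1 and 1969, 788, 325, 1217 and 179.99 without it, in lines 1, 2, 4, 8 and 11. Each line was lower without IWR-1 while the lines stayed in the same order. The log2 difference of -0.29 ± 0.10 (SE) was not called (adjusted p = 0.336), and was -0.16 without line 4 and -0.58 ± 0.21 with the mouse share as a covariate. Its paralog ESRP2 was at 0.29 ± 0.13, higher in 4 of 5 lines.

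**Figure D2:**
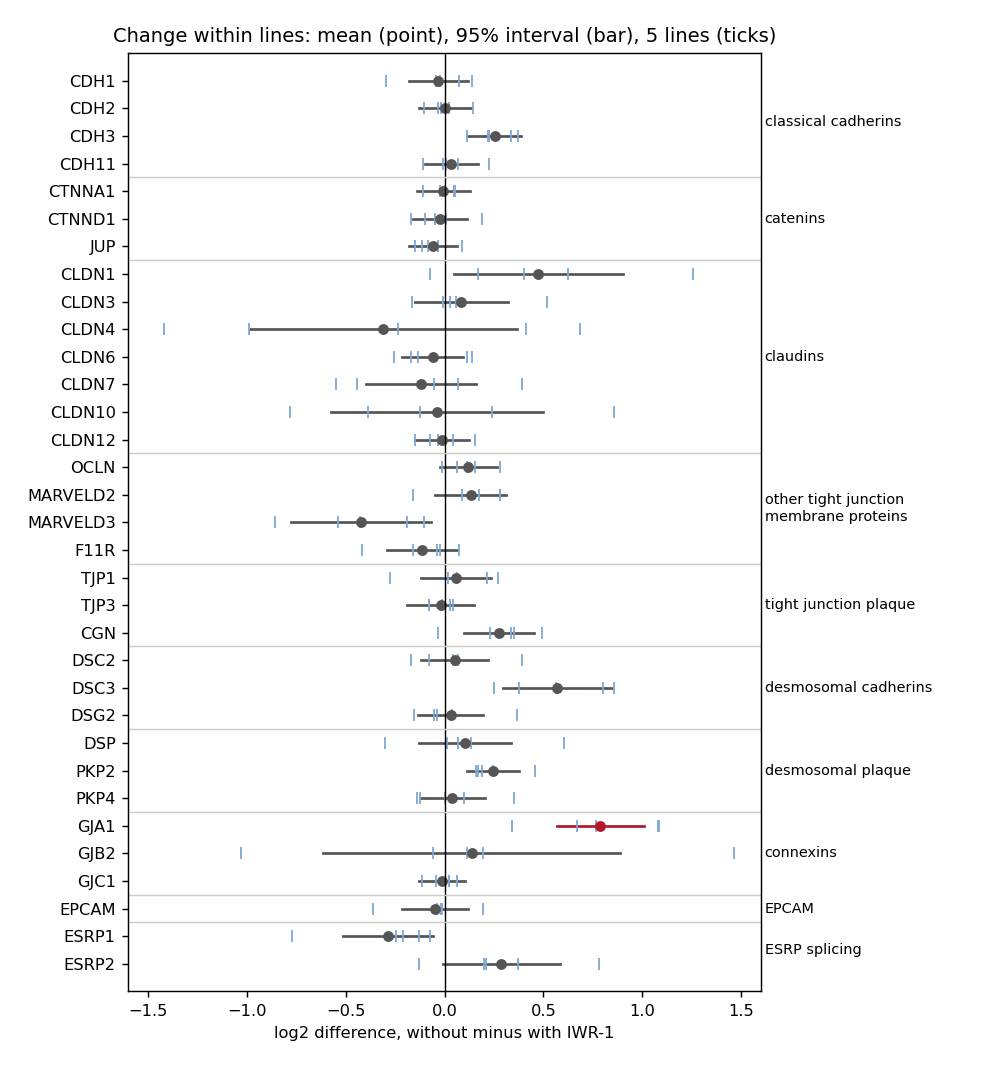
Log2 difference without minus with IWR-1 for the 33 tested junction genes, by class: the point is the mean of 5 lines, the bar its 95% interval from limma (not adjusted for the number of genes) and the ticks the 5 lines. GJA1 (red, 0.79) is the 1 gene called, and most points lie near 0.

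**Figure D3:**
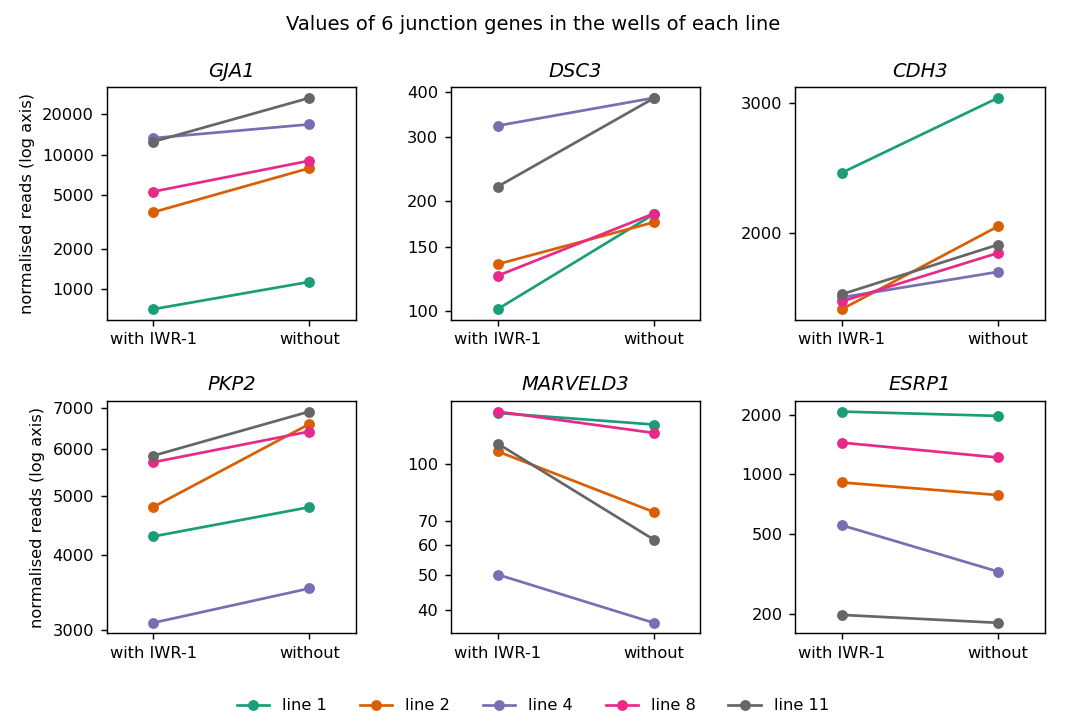
Normalised reads (log axis) in both wells of each line, joined, for the 6 members that moved the same way in 5 of 5 lines. GJA1, DSC3, CDH3 and PKP2 slope up and MARVELD3 and ESRP1 slope down in each line, and for GJA1 and ESRP1 the highest and lowest lines lie far apart in both media.

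In the fit with line as a block, the intervals bound the change of single genes. The unadjusted 95% interval lay inside a 1.5-fold change either way for 27 of 33 members, among them CDH1, CDH2, CDH11, the 3 catenins, CLDN3, CLDN6, OCLN, TJP1, TJP3, DSC2, DSG2, PKP4, GJC1 and EPCAM, against 74.6% of all tested genes. The members were read more deeply than the table (median level 2078 against 901), so this count does not set them apart. CDH3, CGN, PKP2 and ESRP1 also lay inside the limit, with unadjusted intervals that did not include 0. The members outside the 1.5-fold limit were GJA1, CLDN1, CLDN4, MARVELD3, DSC3 and GJB2. In 0 of 33 members were the wells of the 2 media without overlap, against 0.113% of all tested genes.

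The lines differed in these genes far more than the media did. Line accounted for a median of 94.3% of the sum of squares of the log2 values of a member and medium for 0.36%, beside 84.5% and 1.71% over all tested genes. Line has more terms in the fit than medium, which by itself gives it a larger share. A limma F test over the line terms called 31 of 33 members, and 66.5% of all tested genes. The members' median level over the 10 wells was 2078 normalised reads against 901 for all tested genes. The call shares and the shares of the sum of squares are thus of genes read to different depths. CLDN10 and ESRP2 were not called. Between the highest and the lowest line mean, a member differed by a median of 2.57-fold (1.29-fold for CLDN12 to 20.3-fold for GJA1), and a gene of the whole table by 1.71-fold. Without line 4 the F test called 26 of 33, and 48.8% of all tested genes.

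Line 4 was low for many of the members. It was the lowest of the 5 in both media for 15 of 33 members, against 18.4% of all tested genes, and the highest for 1 (DSC3), against 19.1%. The 15 were CDH1, CTNNA1, JUP, CLDN3, CLDN6, CLDN12, MARVELD2, MARVELD3, F11R, TJP3, CGN, DSC2, DSG2, DSP and PKP2. EPCAM, ESRP1 and OCLN were not among them, nor was any of the 11 other epithelial genes tested. F11R was at 352 and 343 normalised reads in line 4 with and without IWR-1, against 941 to 3317 in the other lines. TJP3 was at 144 and 147 there against 486 to 904, and MARVELD2 at 342 and 416 against 844 to 1280. CLDN6 was at 2715 and 2992 in line 4 and at 6970 to 13621 elsewhere. The mesenchymal markers and the mouse share were highest in this line, and their part in these levels was not tested.

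Line 11 was the lowest line in both media for 3 of 33 members, against 8.28% of all tested genes, and the highest for 5, against 10% of them. Both counts are near those shares and do not set the members apart, so the values below describe single genes. EPCAM was lowest in it in both media, at 1405 with and 1093 without IWR-1 against 2051 to 7127 in the other 4 lines. ESRP1 was at 197 and 179.99 in line 11 against 325 to 2069 elsewhere, and OCLN at 922 and 964 against 1095 to 1830. CDH2, CDH11, JUP, PKP2 and GJB2 were highest in line 11. CDH11 stood at 27411 and 27503 there and at 9104 to 16198 in the other lines, and CDH2 at 44849 and 41771 against 18211 to 33116. After line 4, line 11 had the highest mouse share (33.3% with and 26.6% without IWR-1) and the highest sum of fibroblast markers (111818 and 111547). VIM, read at a high level in every well, made up 83132 and 71357 of these sums. COL1A1 and COL3A1 were also highest in line 11 after line 4, while DCN and THY1 were higher in line 8 than in line 11. The part of the mouse share and of these markers in the levels of line 11 was not tested.

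Line 1 was the highest line in both media for 2 of 33 members, against 12.2% of all tested genes, and the lowest for 4, against 11%. Line 8 was the highest for 4, against 8.82%, and the lowest for 0, against 10.9%. No pattern over the members is read from these counts, and the genes below were chosen after their values were seen. Lines 1 and 8 were high for CLDN3, CLDN7 and ESRP1 and low for CDH2. CLDN7 stood at 1365 and 1315 normalised reads in line 1 and 2074 and 2177 in line 8, against 311 to 530.3 in lines 2, 4 and 11. CLDN3 was at 508 to 727 in these 2 lines and 181 to 470 in the others. CDH2 was at 18211 to 21675.5 in them and 27238 to 44849 in lines 2, 4 and 11. The log2 ratio of CDH2 to CDH1 with IWR-1 was 0.74 in line 1, 0.66 in line 8, 1.43 in line 2, 2.27 in line 11 and 3.18 in line 4. Line 1 was also the lowest for GJA1, at 711 and 1133 against 3744 to 26496, and for GJC1 and GJB2.

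**Figure D4:**
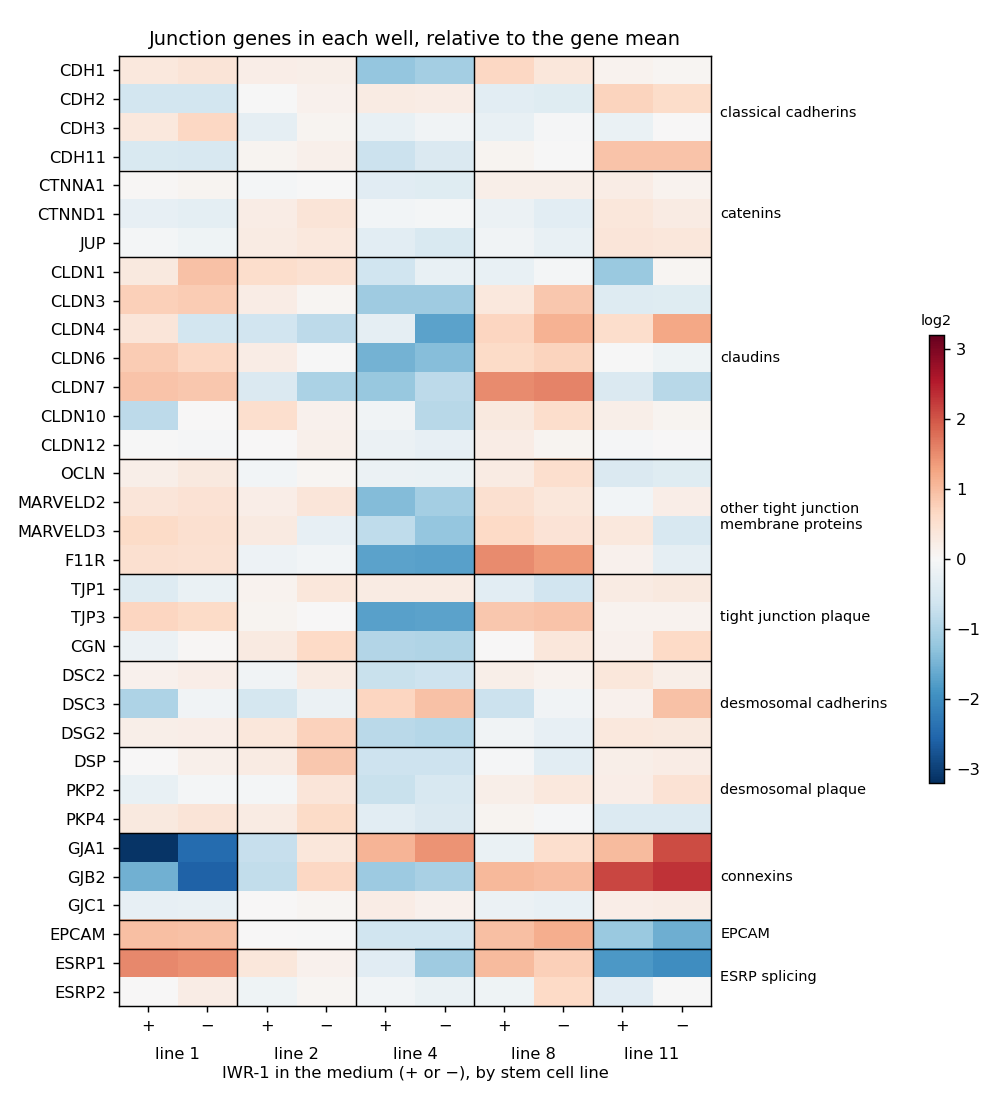
Log2(value + 1) of the 33 tested members in each of the 10 wells, minus the mean of the gene (red above, blue below it), with the wells of a line side by side. Colours change between lines much more than within them; line 4 is blue in most tight junction and desmosome rows, and the GJA1 row is redder or less blue without IWR-1 in each line.

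**Figure D5:**
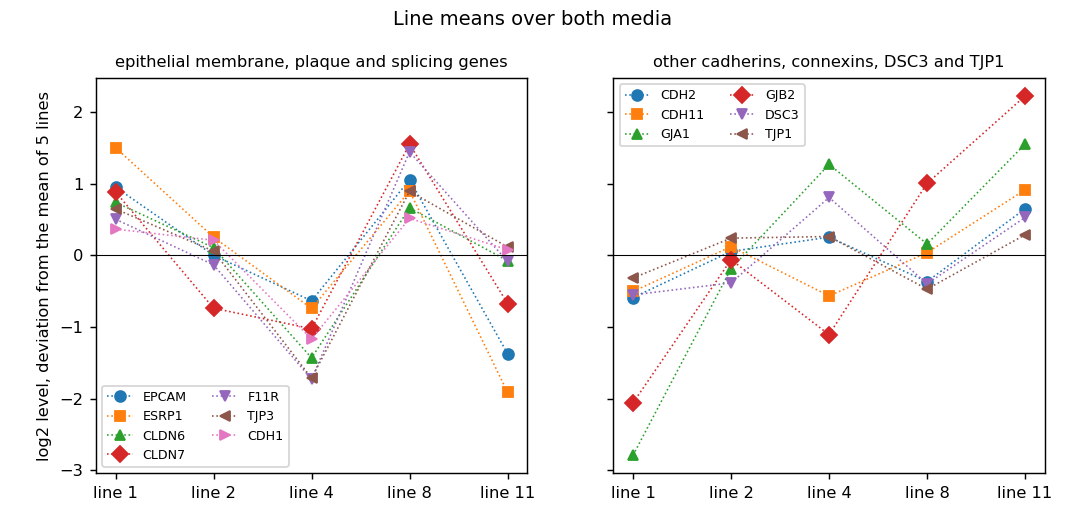
Line means over both media, as log2 deviation from the mean of the 5 lines; dotted lines only join the points of a gene, since lines have no order. The genes shown were picked from the members. Those on the left are low in line 4 or 11 and above the mean in lines 1 and 8, while GJA1 on the right spans from -2.79 in line 1 to 1.55 in line 11.

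Some members are neighbours on the chromosome, in the gene order of assembly ARS-UCD2.0. CDH1 and CDH3 lie next to each other, yet CDH3 was higher without IWR-1 in 5 of 5 lines and CDH1 in 2; across lines, CDH1 was lowest in line 4 in both media and CDH3 highest in line 1. DSC3 lies between CDH2 and DSC2, and of these 3 genes DSC3 alone was highest in line 4, where DSC2 was lowest. OCLN and MARVELD2 are adjacent, and each was higher without IWR-1 in 4 of 5 lines, but not in the same 4. In line 4 OCLN was at -0.01 and MARVELD2 at 0.28, in line 8 OCLN was at 0.28 and MARVELD2 at -0.16, and neither gene was called. CLDN3 and CLDN4 are adjacent too, with log2 differences of 0.09 ± 0.11 and -0.31 ± 0.31 (SE).

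Further genes of the same structures were read from 6 lists. Of 105 listed genes 100 were in the table and 81 were tested, with a median log2 difference of 0.05. Of these, 2 were called higher and 0 lower, against 0.886% and 0.0648% of all tested genes. Both called genes had a junction role beside others. AJUBA, a LIM protein that binds alpha-catenin at adherens junctions and also acts in Hippo signalling, had a mean of 4750.1 ± 623 normalised reads with IWR-1 and 6839 ± 992 without it (SD, n = 5 lines). Its log2 difference was 0.52 ± 0.05 (SE, limma adjusted p = 0.00194), and its wells did not overlap between media, as for 0.113% of all tested genes. PERP, a membrane protein of desmosomes and a target of p53, was at 8694, 8146, 2633, 5577 and 4785 normalised reads with IWR-1 and 12053, 12159, 3159, 7654 and 5373 without it, in lines 1, 2, 4, 8 and 11. Every line was higher without IWR-1 and line 4 was lowest in both media, with a log2 difference of 0.39 ± 0.07 (SE, limma adjusted p = 0.0287).

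By list, 1 of 22 other adherens junction genes was called higher (AJUBA) and 15 were positive. CDH15, a cadherin of muscle, missed the threshold at 1.05 ± 0.21 (SE, adjusted p = 0.0501), from 27.3 to 69.5 normalised reads with IWR-1 to 54.2 to 123 without it. VCL (vinculin) was at 0.31 ± 0.10 and CTNNB1, the beta-catenin gene, at -0.04 ± 0.06, from 43223 to 47768 to 42442 to 47469. Among 6 other desmosome genes PERP was the 1 called higher, and EVPL (envoplakin) was at -0.18 ± 0.10. All 6 of these desmosome genes were lowest in line 4 in both media, against 18.4% of all tested genes. Among 8 other claudins 0 were called, with CLDN19 at 0.60 ± 0.17, CLDN9 at -0.25 ± 0.08, CLDN2 at 0.30 ± 0.33 and CLDN11 at 0.06 ± 0.09. Of 25 other tight junction and polarity genes 0 were called, with ILDR2 at 0.32 ± 0.09, CGNL1, the paralog of cingulin, at 0.27 ± 0.08, and CXADR at 0.16 ± 0.08.

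For 9 other connexins and pannexins 0 were called, with GJA10 at -0.47 ± 0.19 (SE) and GJC3 at 0.28 ± 0.24. GJA5, encoding Cx40, was at 580 and 878 in line 4 with and without IWR-1 and at 5.91 to 31.1 in the other lines. Among 11 other epithelial genes 0 were called, with SPINT1 at 0.36 ± 0.12, GRHL2 at 0.63 ± 0.27, OVOL2 at -0.31 ± 0.21 and RAB25 at 0.32 ± 0.25. GRHL3, a grainyhead factor, was at 1540 and 2512 in line 11 with and without IWR-1 and at 35.4 to 237 in the other lines; GJA5 and GRHL3 were singled out after their values were seen.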

How the data were processed

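Poly(A) RNA from 10 co-culture wells was sequenced, and per the labels reads were mapped separately to bovine ARS-UCD1.3 and mouse GRCm39. Tools listed in the submitters' processing notes, without roles, are featureCounts 1.5.0-p3, StringTie 1.3.3b, HISAT2 2.0.5 and fastp; the sources used here do not say whether strand was used. The authors deposited a normalised signal per gene and library. Within a library 100% of the positive values were whole multiples of 1 step (tolerance 0.01 reads), and dividing by it gave reads. The sources do not give the scaling, which is inferred from the values. Of 27590 bovine IDs 24660 matched a RefSeq table of ARS-UCD2.0, which gave symbols; it also gave the order of neighbouring genes, and no coordinates are printed; the 2 mouse columns without a sample label were left out. Mouse genes were used only as read totals. Without transcript lengths, levels are not compared between genes.

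Genes that reached 10 normalised reads in 5 or more of the libraries were tested with limma 3.58.1 (R 4.3.3, intensity trend) on log2(value + 1), with line and medium as terms, a scale that understates changes of low genes; adjusted p under 0.05 was called. Standard errors and intervals use variances moderated across genes. Both wells of a number hold the same line, per the labels, and their deviations from the group means correlated at 0.617 to 0.883. Each line gave 1 well per medium, so the spread between lines includes that between wells. Reads entered edgeR 4.0.16 and DESeq2 1.42.0 as alternatives; edgeR called 178 genes higher and 12 lower. The fit was tested on simulated data. Every member is accounted for; wells are given for members called or moving one way in 5 of 5 lines by at least 0.25, and for genes a line comparison turned on, the latter chosen after their values were seen. Of the 6 lists, called genes are named, and otherwise up to 4 with the smallest adjusted p; GJA5, GRHL3, CTNNB1, CDH15, VCL and EVPL were added. Some genes that this rule names are not reported here. Members and lists were chosen with earlier results of these data known.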

Additional observations from a re-analysis of the deposited data

Results flagged for a closer look

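In each medium, and among the 5 changes within lines, a value was singled out where its gap to the nearest other line was over 0.71 of the whole range on the log2 scale. Of 99 such groups of 5, 8 passed, where chance gives about 1 in 20, and 5 of the 8 were values of line 4. The groups are not independent, since 66 are levels of the same genes and lines in both media. The count is therefore not a test, and no excess over chance is claimed. Line 4 was far below the other lines for CDH1 without IWR-1 (4038 normalised reads, next line 8980), MARVELD2 without IWR-1 (416, next 1025), MARVELD3 with IWR-1 (49.98, next 108) and DSC2 without IWR-1 (4299, next 7428). CDH3 was far higher in line 1 than in the others with IWR-1 (2413, next 1651) and without it (3049, next 2041). The log2 change of ESRP1 was -0.77 in line 4 and -0.25 in the next line, and that of PKP2 was 0.46 in line 2 and 0.24 in the next.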

How the results depend on the processing

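Of the members, 0 were called without the replicate block (GJA1 adjusted p = 1.00), 3 with DESeq2 (GJA1, DSC3 and PKP2) and 0 with the mouse share as a covariate. Under the other alternatives (pseudocounts of 0.5 and 10, no filter, TMM factors, edgeR, 1 line left out) GJA1 was the 1 member called, and 0 members were lower. Over all genes the calls higher and lower were 164 and 12, against 0 and 0 without the block, 51 and 2 without the filter, 358 and 64 with DESeq2, and 31 to 160 and 0 to 25 with 1 line left out (fewest without line 11, with 35 and 1 without line 1 and 99 and 3 without line 4). The F test between lines called 26 members and 48.8% of all genes without line 4, and 31 members and 66.5% of all genes with every line; the other settings lay between 28 and 31 members.

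Among members that were not called, some changed sign, and the cause was not tested. The mouse share fell in every line without IWR-1, so a fit with it as a covariate separates it from the medium only in part. Its standard errors were larger (for CDH1 0.15 against 0.07). With the mouse share as a covariate the log2 difference was 0.12 for CDH1, 0.051 for CTNNA1, 0.025 for CTNND1 and 0.058 for CLDN6. It was 0.38 for CLDN7, 0.11 for F11R, -0.040 for CGN, -0.026 for PKP4, -0.34 for GJB2, 0.13 for EPCAM and -0.045 for ESRP2. Without that covariate CGN was at 0.28, ESRP2 at 0.29 and GJB2 at 0.14. The unadjusted interval of CGN lay above 0 (0.10 to 0.45). Those of ESRP2 (-0.01 to 0.58) and GJB2 (-0.61 to 0.89) included 0. Among members that kept their sign, that covariate moved CLDN4 from -0.31 to -1.74, ESRP1 from -0.29 to -0.58, MARVELD3 from -0.42 to -0.10, CLDN1 from 0.47 to 0.12 and DSC3 from 0.57 to 0.37. CDH2 was at -0.000445 with TMM factors, -0.000490 with edgeR and -0.000460 with DESeq2. With 1 line left out at a time, the ranges that crossed 0 were -0.074 to 0.035 for CDH1, -0.034 to 0.028 for CDH2, -0.012 to 0.071 for CDH11, -0.021 to 0.019 for CTNNA1, -0.076 to 0.013 for CTNND1, -0.022 to 0.15 for CLDN3, -0.26 to 0.15 for CLDN10, -0.054 to 0.022 for CLDN12, -0.034 to 0.11 for DSC2, -0.053 to 0.078 for DSG2, -0.021 to 0.20 for DSP, -0.040 to 0.082 for PKP4, -0.20 to 0.43 for GJB2, -0.030 to 0.015 for GJC1 and -0.11 to 0.030 for EPCAM.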
